A study of Mus musculus with 10 samples.

Results

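The 37 genes described here encode proteins of DNA repair, chosen by name and known function and grouped into 7 branches. The branches were nucleotide excision (7 genes), translesion synthesis and nucleotide supply (5), homologous recombination (7), the Fanconi pathway (4), end joining (6), mismatch repair (2), and base excision and single-strand break repair (6). All 37 were found by symbol among the 47729 genes of the count table, and all 37 passed the filter on low counts among the 20562 genes tested. They were read in total RNA of mouse forelimb buds at embryonic day 11.5 to 12, in 5 control and 5 knockout libraries of Cxxc1, a gene whose protein binds unmethylated CpG and belongs to a histone H3 lysine methyltransferase complex. The 5 knockouts carried Prx1Cre, a Cre transgene active in limb bud mesenchyme, and the floxed Cxxc1 allele on both chromosomes (Prx1Cre_+-Cxxc1fl_fl). Every embryo carried at least 1 floxed allele, and the controls were of mixed genotype. Control 1 carried the Cre with 1 floxed and 1 wild-type allele (Prx1Cre_+-Cxxc1fl_wt). Controls 2 and 4 were without Cre and with 1 floxed allele (CreWT-Cxxc1fl_WT), and control 3 was without Cre and with floxed alleles on both chromosomes (CreWT-Cxxc1fl_fl). Control 5 carried floxed alleles on both chromosomes with its Cre status marked by a question mark (Prx1Cre?-Cxxc1fl_fl). Cre was thus labelled in every knockout but, among controls, without doubt in control 1 only. An effect of Cre itself was not separated from that of the deletion. Litter A gave libraries 1 and 2 of each group, and litters B, C and D gave libraries 3, 4 and 5. Somite stages ran from 49 to 51 in both groups. Cells in which this Cre is not active, such as those of ectoderm, blood and vessels, keep the gene, so each knockout library mixes deleted and undeleted cells.

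Cells meet different DNA lesions with different branches of repair. Nucleotide excision cuts out a short stretch around a bulky lesion, base excision removes a single damaged base, and mismatch repair corrects errors left by replication. Breaks of both strands are rejoined by end joining or copied from the sister chromatid by homologous recombination, the Fanconi pathway opens crosslinks between strands, and translesion polymerases copy across lesions that stop the replicative polymerases. In proliferating embryonic tissue many of these genes are expressed at all times, and a few are also known targets of the transcription factor p53.

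Total counts lay between 33274855 and 49881126 per library, so that 3 counts correspond to 0.060 to 0.090 CPM (counts scaled to library size, with TMM factors). Means are given with the SD over 5 libraries. Cxxc1 itself stood at 96.7 ± 6.88 CPM (controls) and 75.2 ± 1.23 CPM (knockouts) and fell by 0.36 on the log2 scale (edgeR quasi-likelihood test, adjusted p = 0.000144). Counts per gene do not show which exons were read, so this level does not measure the share of deleted cells. The 9 limb mesenchyme markers summed to 2018 to 2135 CPM in controls and 1046 to 1166 CPM in knockouts, and 7 of the 9 fell. Of 12 macrophage markers 12 rose (61.7 to 75.9 against 226 to 263 CPM summed), as did 6 of 11 ectoderm markers (308 to 505 against 549 to 658 CPM), 9 of 9 erythroid markers (2123 to 2481 against 2534 to 5338 CPM) and 5 of 8 muscle precursor markers (102 to 128 against 115 to 216 CPM). Among 10 endothelial markers 7 rose and 1 fell (279 to 325 against 328 to 378 CPM). These counts cover only markers that passed the filter on low counts, and of 10 erythroid markers listed 9 were tested. Of 18 genes of G2 and mitosis 12 fell and 0 rose (4169 to 4604 against 3656 to 3801 CPM), and of 20 genes of G1/S and replication 1 rose and 2 fell (3483 to 3992 against 3409 to 3747 CPM). Of all genes tested 18.1% were called higher and 17.1% lower. These marker and cell cycle lists were chosen with earlier results of these data known, so their counts are no test. In these bulk samples fewer cells of a type and less RNA per cell cannot be told apart, and the part of cell makeup in any value below was not tested. Xist was high in control 1 and knockout 3 and low in the other 8 libraries.

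The repair genes moved about as often as the rest of the transcriptome and, except for a few, by little. At an adjusted p below 0.05 (edgeR quasi-likelihood test, adjusted over all genes tested), 9 of the 37 rose, 4 fell and 24 did not pass. The 13 that passed are 35.1% of the 37, where 35.2% of all genes tested were called. By direction, the 9 that rose are 24.3% against 18.1% of all genes called higher, and the 4 that fell are 10.8% against 17.1% called lower. The genes that rose were Polk, Ercc5, Rev1, Rad50, Fancd2, Xrcc6, Prkdc, Msh6 and Ung, and those that fell were Ddb2, Ercc1, Rev3l and Trp53bp1. Only Polk and Ercc5 of the 37 passed with a change of at least 1.5-fold, where 14.2% of all genes tested did so in either direction and 8.83% upward. With scaling by library size alone, which moves the median of all genes to 0.05, 10 of the 37 rose and 0 fell. Under that scaling 4492 of all genes tested rose and 2734 fell, against 3719 and 3526 with TMM factors. The median log2 fold change was 0.04 over the 37 and 0.00 over all genes tested, and the median of its absolute value was 0.13 against 0.23. All genes tested include genes at lower levels than the 37, and the comparison was not matched for level. In 33 of the 37 the log2 fold change lay within 0.3 of 0.

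Precision was high enough to bound most of the genes that did not pass. The lowest level of any of the 37 in any library was 5.70 CPM, far above the level of 3 counts. The coefficient of variation among 5 libraries had a median of 7.34% in controls and 6.88% in knockouts. For 23 of the 24 genes not called, the approximate 95% confidence interval of the log2 fold change excluded 1.5-fold in either direction. The intervals of the 24 reached a median of 0.14 to either side. The exception was Xpa, whose interval ran from -0.59 to -0.09. Control and knockout libraries did not overlap for 5 of the 37 (13.5%, against 25.3% of all genes tested), namely Polk, Ercc5, Rev1, Msh6 and Trp53bp1.

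**Figure D1:**
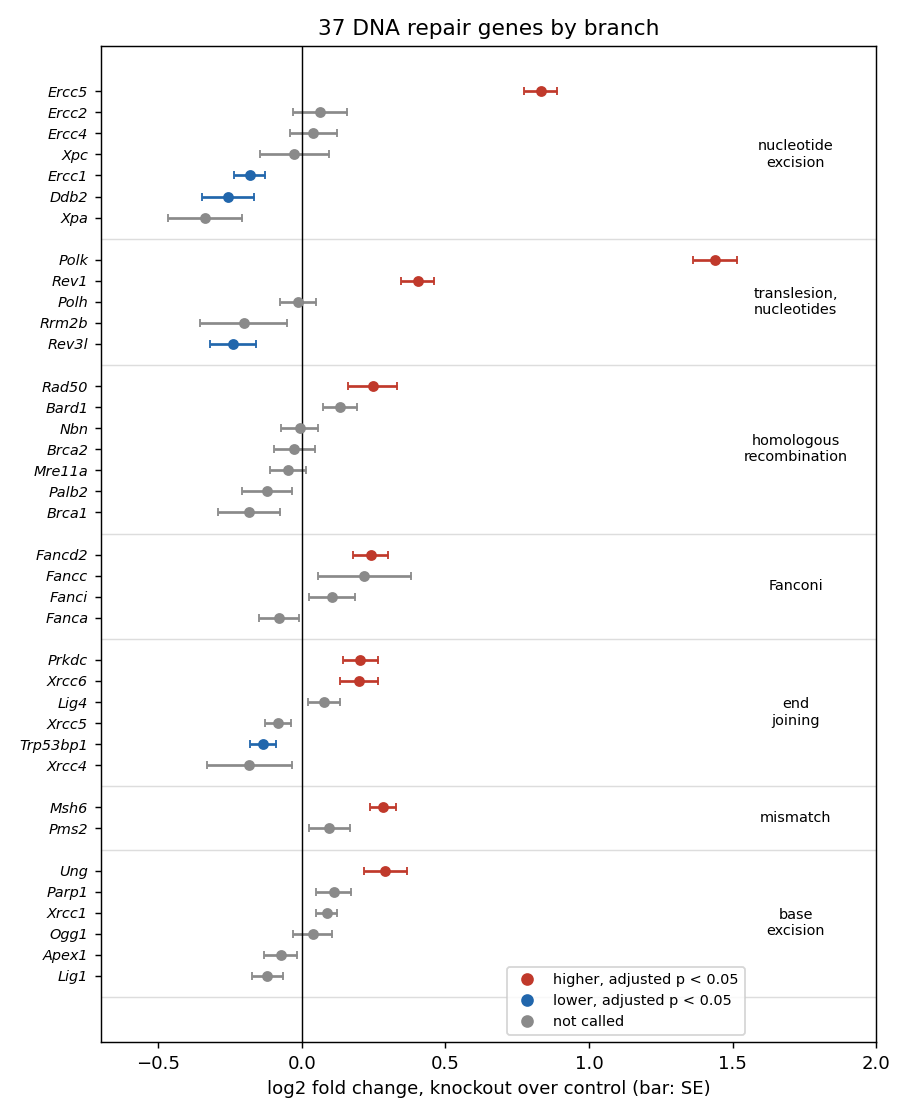
Log2 fold change, knockout over control, of the 37 repair genes grouped by branch (points; bars are the SE from the edgeR test; red higher, blue lower, grey not called). Polk at 1.44 and Ercc5 at 0.83 stand to the right, and 33 of the 37 lie within 0.3 of 0.

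The transcription start windows of the 4 genes that rose without overlap between the groups are shown because CXXC1 binds unmethylated CpG and each window can be read for it. The windows are 300 bases long, from 250 before to 50 after the start (RefSeq, GRCm38.p6), and each CpG is in capitals. Polk lies on the minus strand with its window at chr13:96542530-96542829, Ercc5 on the plus strand at chr1:44147494-44147793, Rev1 on the minus strand at chr1:38129617-38129916 and Msh6 on the plus strand at chr17:87974800-87975099.
Polk: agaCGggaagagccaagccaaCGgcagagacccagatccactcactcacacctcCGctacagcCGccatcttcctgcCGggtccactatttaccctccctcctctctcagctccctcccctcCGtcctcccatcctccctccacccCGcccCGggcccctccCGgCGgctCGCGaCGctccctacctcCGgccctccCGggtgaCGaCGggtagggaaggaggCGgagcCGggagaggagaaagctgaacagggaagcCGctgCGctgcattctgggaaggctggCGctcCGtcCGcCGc
Ercc5: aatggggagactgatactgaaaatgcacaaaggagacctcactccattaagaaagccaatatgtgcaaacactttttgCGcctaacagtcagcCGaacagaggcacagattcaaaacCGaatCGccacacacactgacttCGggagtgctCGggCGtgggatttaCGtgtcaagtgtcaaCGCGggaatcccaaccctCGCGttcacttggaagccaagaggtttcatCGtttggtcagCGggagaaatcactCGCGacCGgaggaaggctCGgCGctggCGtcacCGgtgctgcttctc
Rev1: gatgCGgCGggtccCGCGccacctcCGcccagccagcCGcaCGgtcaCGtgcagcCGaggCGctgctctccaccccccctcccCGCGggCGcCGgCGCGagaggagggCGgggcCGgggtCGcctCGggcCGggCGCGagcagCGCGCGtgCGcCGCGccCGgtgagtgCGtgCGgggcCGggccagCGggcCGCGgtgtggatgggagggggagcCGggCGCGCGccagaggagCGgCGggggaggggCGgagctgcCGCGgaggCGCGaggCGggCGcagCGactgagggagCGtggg
Msh6: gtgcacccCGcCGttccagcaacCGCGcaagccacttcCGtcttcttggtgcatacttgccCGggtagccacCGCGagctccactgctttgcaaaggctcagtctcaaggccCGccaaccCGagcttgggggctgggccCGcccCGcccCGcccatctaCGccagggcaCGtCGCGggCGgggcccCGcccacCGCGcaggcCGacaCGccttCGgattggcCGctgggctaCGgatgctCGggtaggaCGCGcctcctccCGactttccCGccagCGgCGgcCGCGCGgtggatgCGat
These windows hold 25, 21, 51 and 37 CpG for Polk, Ercc5, Rev1 and Msh6. A window was found for 29 of the 37 genes, with a median of 23.0 CpG against 7.0 over all 32851 windows of the table, and 26 of the 29 held at least 10 CpG against 43.5% of all windows. All windows cover 27025 genes, some with several windows and some not among the genes tested. The comparison was not matched for level, so it does not show a trait particular to repair genes. The median was 27.5 CpG for 6 genes that rose, 16.5 for 2 that fell and 23.0 for 21 that did not pass. A link between CpG count and change was not tested. Where several windows were listed, for Polk (2), Lig4 (2) and Lig1 (3), the one nearest the GENCODE start of the gene was taken. The single windows of Xrcc6 and Fancc lie 28534 and 65533 bases from that start and may not be the start in use here. The consensus of a single p53 decamer, searched on both strands, was matched in 1 of the 29 windows (Fanca, 3.45%), where 8.36% of all windows hold a match. Xpc, Ddb2, Rev3l, Rrm2b, Rad50, Nbn, Fancd2 and Prkdc had no window, so the search did not cover them. A match is a description of the letters, and the lack of one says nothing of p53 binding outside the window.

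Among the 7 genes of nucleotide excision repair 1 rose, 2 fell and 4 missed the threshold, at a median log2 fold change of -0.03. Ercc5, which encodes the XPG nuclease that cuts on the 3' side of the lesion, carried the rise. Its control levels were 53.7, 52.7, 54.9, 46.8 and 55.7 CPM in libraries 1 to 5, and its knockout levels 96.4, 93.3, 92.5, 86.9 and 100.5 CPM. Every knockout was above every control, and the lowest control and the lowest knockout both came from litter C. The change was 1.78-fold, a log2 fold change of 0.83 (SE 0.056, edgeR adjusted p = 6.14e-07), with an exact two-sided permutation p of 0.00794, the smallest that 5 against 5 can give. Here and below, every gene without overlap between the groups has this permutation p. It ignores litters and adds nothing to the lack of overlap.

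Of the other 6 genes none rose. Ddb2, whose product recognises ultraviolet damage, read 15.1, 14.9, 14.9, 12.1 and 13.9 CPM in controls and 12.8, 12.2, 9.71, 12.5 and 12.1 CPM in knockouts. The groups overlapped, because control 4 was below most knockouts. Its log2 fold change was -0.26 (edgeR adjusted p = 0.0466), which did not pass with litter as a block (adjusted p = 0.0569). Leaving out any 1 library except control 4 or knockout 1 also ended the call, with log2 fold changes between -0.28 and -0.19 and adjusted p between 0.0577 and 0.0981. Acp2, read from the other strand over 23.8% of the exon length of Ddb2, was itself lower (log2 fold change -0.42, adjusted p = 0.0373). Whether reads were assigned by strand is not given in the sources, and without it the reads of such a pair cannot be told apart.

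Ercc1, the partner of the nuclease that cuts on the 5' side, fell by 0.18 on the log2 scale (SE 0.054, edgeR adjusted p = 0.0206), from 28.7 to 31.9 CPM in controls to 25.4 to 28.8 CPM in knockouts. It was lower in all 4 litters. Ercc4, which encodes the nuclease itself, read 19.4 ± 1.75 and 19.9 ± 1.84 CPM (log2 fold change 0.04, adjusted p = 0.75). The difference between the pair of subunits was not tested. Xpa, the scaffold that checks the lesion, had the widest distance from 0 without passing (11.9 ± 1.85 against 9.42 ± 1.39 CPM, log2 fold change -0.34, adjusted p = 0.0603). It passed without control 4 (-0.41, adjusted p = 0.0255), without knockout 4 (-0.40, adjusted p = 0.039) and in DESeq2 (adjusted p = 0.0398). Litter C ran against the other litters for Xpa, with a difference of 0.21 in log2 CPM against -0.94, -0.33 and -0.30 in litters B, A and D. Xpc, the general damage sensor, and Ercc2, a helicase of the TFIIH complex, were near 0 (log2 fold changes -0.03 and 0.06, adjusted p = 0.893 and 0.65).

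Among the 5 genes of translesion synthesis and nucleotide supply 2 rose, 1 fell and 2 missed the threshold, at a median log2 fold change of -0.01. The largest change of all 37 genes was that of Polk, which encodes DNA polymerase kappa, a polymerase that copies past bulky adducts on guanine. Polk read 14.9, 14.4, 14.3, 12.3 and 14.3 CPM in controls and 42.7, 39.3, 35.8, 33.7 and 38.9 CPM in knockouts. The lowest knockout stood far above the highest control. The change was 2.71-fold, a log2 fold change of 1.44 (SE 0.076, edgeR adjusted p = 6.74e-08, exact two-sided permutation p = 0.00794). Within litters the difference in log2 CPM was 1.48 in A, 1.33 in B, 1.45 in C and 1.44 in D, so the litters gave nearly the same size.

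Rev1, the scaffold and deoxycytidyl transferase that brings other translesion polymerases to the fork, also rose. It read 55.4, 54.8, 49.2, 50.9 and 44.8 CPM in controls and 68.6, 64.6, 67.1, 69.1 and 68.0 CPM in knockouts. No control reached the lowest knockout, and the knockouts were closer together than the controls. The log2 fold change was 0.40 (SE 0.059, edgeR adjusted p = 0.000229, exact two-sided permutation p = 0.00794). Eif5b overlaps 26.6% of the exon length of Rev1 from the other strand, and its own log2 fold change was 0.02 (adjusted p = 0.779).

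Of the other 3 genes of the branch 1 fell and 2 did not pass. Rev3l, the catalytic subunit of polymerase zeta, fell by 0.24 on the log2 scale (SE 0.080, edgeR adjusted p = 0.0354), from 71.3 to 96.9 CPM in controls to 62.5 to 74.5 CPM in knockouts. Control 1 was its highest library by far, and without it the log2 fold change was -0.16 (adjusted p = 0.0566). Leaving out control 2, control 5 or any of knockouts 2 to 5 also ended the call, with log2 fold changes between -0.25 and -0.21 and adjusted p between 0.0512 and 0.087. Polh, polymerase eta, which copies past thymine dimers, read 26.5 ± 1.95 and 26.2 ± 1.11 CPM (log2 fold change -0.01, adjusted p = 0.887), with an interval from -0.14 to 0.11. Rrm2b, a small subunit of ribonucleotide reductase that supplies nucleotides for repair, read 11.6 ± 1.56 and 10.1 ± 2.31 CPM (log2 fold change -0.20, adjusted p = 0.338).

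**Figure D2:**
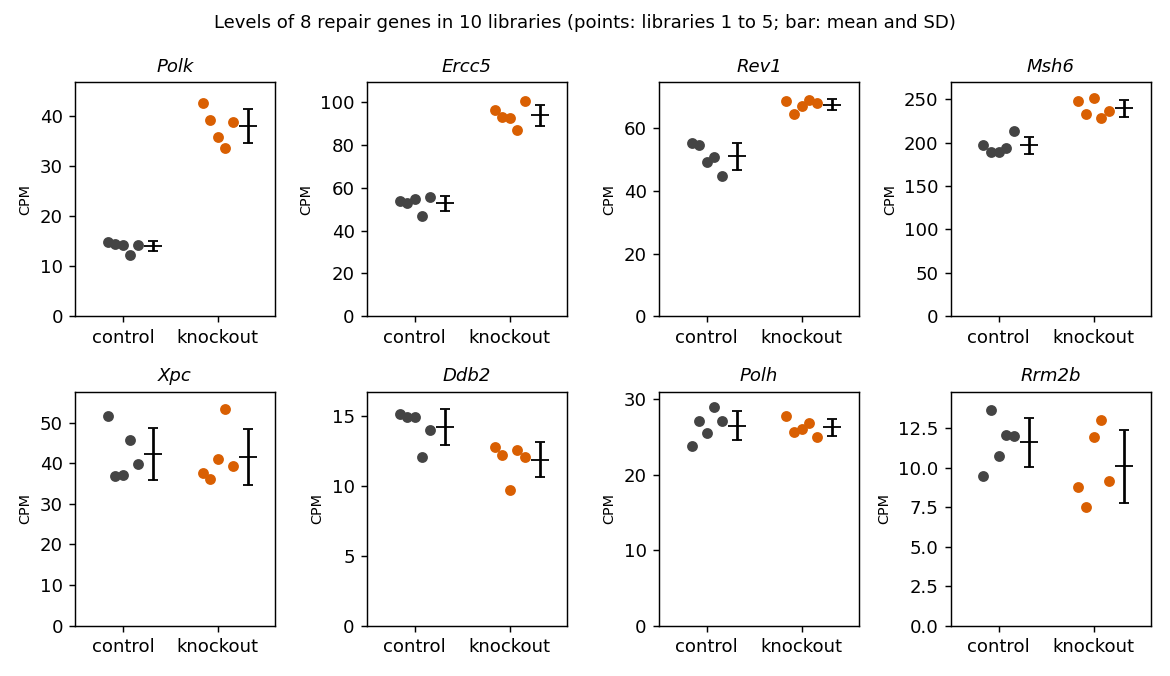
Level in CPM (axes start at 0) of 8 repair genes in the 10 libraries, controls in grey and knockouts in orange, with points in library order 1 to 5 and the mean and SD beside them. Polk, Ercc5, Rev1 and Msh6 (upper row) show knockouts wholly above controls, and Xpc, Ddb2, Polh and Rrm2b (lower row) show overlapping groups.

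The 5 members listed here as p53 targets did not move as 1 group. Xpc, Ddb2, Polh and Rrm2b are p53 targets in human cells and Polk is one in the mouse. Whether those listed from human cells respond to p53 in the mouse was not tested, and the list may not be complete. Polk rose, Ddb2 fell, and Xpc, Polh and Rrm2b did not pass. All 14 genes listed as p53 targets outside repair rose, where 18.1% of all genes tested did. Their median log2 fold change was 1.90, and their summed level was 457 to 506 CPM in controls and 1870 to 2130 CPM in knockouts. This list was chosen with earlier results of these data known, so its count is no test. The part of p53 in any of these changes was not tested. Cdkn1a, the cell cycle inhibitor p21, went from 16.8 ± 2.79 to 224 ± 16.6 CPM (log2 fold change 3.74, edgeR adjusted p = 4.12e-10). Xpc was spread widely in both groups (36.9 to 51.8 CPM in controls, 36.2 to 53.4 CPM in knockouts), and litters A and D had a lower and litters B and C a higher knockout.

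Among the 7 genes of homologous recombination 1 rose and 6 missed the threshold, at a median log2 fold change of -0.03. Rad50 encodes the ATPase of the complex that first binds and trims a break. It read 70.7, 63.6, 58.5, 52.4 and 65.4 CPM in controls and 85.1, 67.6, 72.9, 67.6 and 75.5 CPM in knockouts. Knockout 1 was the highest and control 4 the lowest, and control 1 lay above knockouts 2 and 4. The log2 fold change was 0.25 (SE 0.085, edgeR adjusted p = 0.0401). It kept its direction in all 4 litters, but leaving out any of controls 2 to 5 or of knockouts 1, 3 and 5 ended the call (log2 fold changes 0.19 to 0.26, adjusted p 0.0547 to 0.0952).

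Neither partner of Rad50 passed. Mre11a, the nuclease of the complex, read 69.6 ± 4.39 and 67.3 ± 5.44 CPM (log2 fold change -0.05, adjusted p = 0.60), and Nbn, its signalling subunit, 48.1 ± 3.54 and 47.8 ± 3.20 CPM (-0.01, adjusted p = 0.945). Brca1, the ubiquitin ligase that steers breaks to recombination, was at -0.19 (adjusted p = 0.215). Its control 1 stood high at 118 CPM with the other controls at 82.1 to 92.4 CPM. Bard1, the partner of Brca1 in that ligase, was at 0.13 (adjusted p = 0.108), and passed without knockout 5 (0.16, adjusted p = 0.0482). Palb2, which bridges Brca1 and Brca2, was at -0.12 (adjusted p = 0.321), and passed without knockout 2 (-0.20, adjusted p = 0.0464). Brca2, a mediator of strand exchange, was at -0.03 (adjusted p = 0.813).

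Of the 4 Fanconi genes 1 rose and 3 did not pass, with a median log2 fold change of 0.16. Fancd2, which with Fanci forms the clamp that is ubiquitinated at a crosslink, read 47.6, 42.95, 39.8, 43.7 and 42.7 CPM in controls and 51.1, 50.1, 51.3, 56.6 and 46.85 CPM in knockouts. The groups overlapped at 1 place, control 1 lying above knockout 5. The log2 fold change was 0.24 (SE 0.062, edgeR adjusted p = 0.00941), and the knockout was higher in all 4 litters. Fanci read 48.0 ± 3.28 and 51.6 ± 6.02 CPM (log2 fold change 0.10, adjusted p = 0.352), and Polg overlaps part of its exons from the other strand. Fanca and Fancc, subunits of the core complex that adds the ubiquitin, were at -0.08 and 0.22 (adjusted p = 0.411 and 0.338). Fancc varied most among Fanconi genes, from 14.2 CPM in control 1 to 31.2 CPM in knockout 1, both of litter A.

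Among the 6 end joining genes 2 rose, 1 fell and 3 missed the threshold, at a median log2 fold change of 0.00. Prkdc, the kinase DNA-PKcs that joins the Ku dimer at a broken end, read 45.0, 43.3, 42.1, 41.2 and 43.2 CPM in controls and 50.9, 49.3, 46.8, 44.6 and 55.7 CPM in knockouts. Knockout 5 was the highest, and knockout 4 lay just below control 1. The log2 fold change was 0.20 (SE 0.061, edgeR adjusted p = 0.0204).

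Of the pair of genes for the Ku dimer 1 rose. Xrcc6, which encodes Ku70, rose by 0.20 on the log2 scale (SE 0.066, edgeR adjusted p = 0.0326), from 60.4 to 75.9 CPM in controls to 72.3 to 84.4 CPM in knockouts. Leaving out any of controls 1 to 3 or of knockouts 1, 3, 4 and 5 ended that call, with log2 fold changes from 0.15 to 0.20 and adjusted p from 0.0571 to 0.0785. Xrcc5, which encodes Ku80, was at -0.08 with an interval from -0.17 to 0.01 (adjusted p = 0.187). Whether the pair differed from each other was not tested. Trp53bp1, whose product 53BP1 shields ends from trimming, read 246.5, 253.2, 276.5, 247.8 and 270.0 CPM in controls and 235.6, 223.8, 241.9, 232.1 and 246.0 CPM in knockouts. The highest knockout was just below the lowest control, so the groups did not overlap by a narrow margin. It fell by 0.13 on the log2 scale (SE 0.046, edgeR adjusted p = 0.0376, exact two-sided permutation p = 0.00794) and was lower in all 4 litters. Leaving out any of controls 2, 3 and 5 or of knockouts 1 to 4 took the adjusted p to between 0.0511 and 0.0907, with log2 fold changes from -0.14 to -0.11. Tubgcp4 overlaps 2130 of its exon bases from the other strand and was lower as well (-0.21, adjusted p = 0.0241). The ligase gene Lig4 and its partner Xrcc4 did not pass (0.08 and -0.18, adjusted p = 0.331 and 0.378), and Xrcc4 was the lowest of the 37 in CPM (7.94 ± 1.71 in controls).

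Of the 2 mismatch repair genes 1 rose, at a median log2 fold change of 0.19. Msh6 encodes a protein that recognises single mismatched bases. It read 197.1, 188.9, 189.6, 193.8 and 213.8 CPM in controls and 247.7, 232.9, 250.9, 228.3 and 236.8 CPM in knockouts. All knockouts lay above all controls. The log2 fold change was 0.28 (SE 0.046, edgeR adjusted p = 0.000488, exact two-sided permutation p = 0.00794). Pms2, which nicks the new strand, read 42.6 ± 3.89 and 45.5 ± 3.27 CPM (log2 fold change 0.10, adjusted p = 0.342), and did not pass.

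Among the 6 genes of base excision and single-strand break repair 1 rose and 5 missed the threshold, at a median log2 fold change of 0.06. Ung, the glycosylase that removes uracil from DNA, read 38.95, 39.6, 41.5, 44.9 and 50.4 CPM in controls and 51.6, 48.55, 54.15, 56.8 and 52.4 CPM in knockouts. Control 5 was the only control above any knockout. The log2 fold change was 0.29 (SE 0.074, edgeR adjusted p = 0.00871), with differences of 0.34 to 0.38 in litters A, B and C and 0.06 in litter D.

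The remaining 5 were close to 0 with narrow intervals. Xrcc1, the scaffold of single-strand break repair, was at 0.09 with an interval from 0.01 to 0.16 (adjusted p = 0.0931). Parp1, the sensor of strand breaks, was at 0.11 (adjusted p = 0.188), Lig1, the ligase of replication and long-patch repair, at -0.12 (adjusted p = 0.102), and Ogg1, the glycosylase for oxidised guanine, at 0.04 (adjusted p = 0.718). Camk1, lower at -0.61 (adjusted p = 9.3e-05), overlaps 10.6% of the exon length of Ogg1 from the other strand. Apex1, the nuclease that cuts at the abasic site, was at -0.07 (adjusted p = 0.35), and Pip4p1 overlaps 61.7% of its exon length from the other strand.

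**Figure D3:**
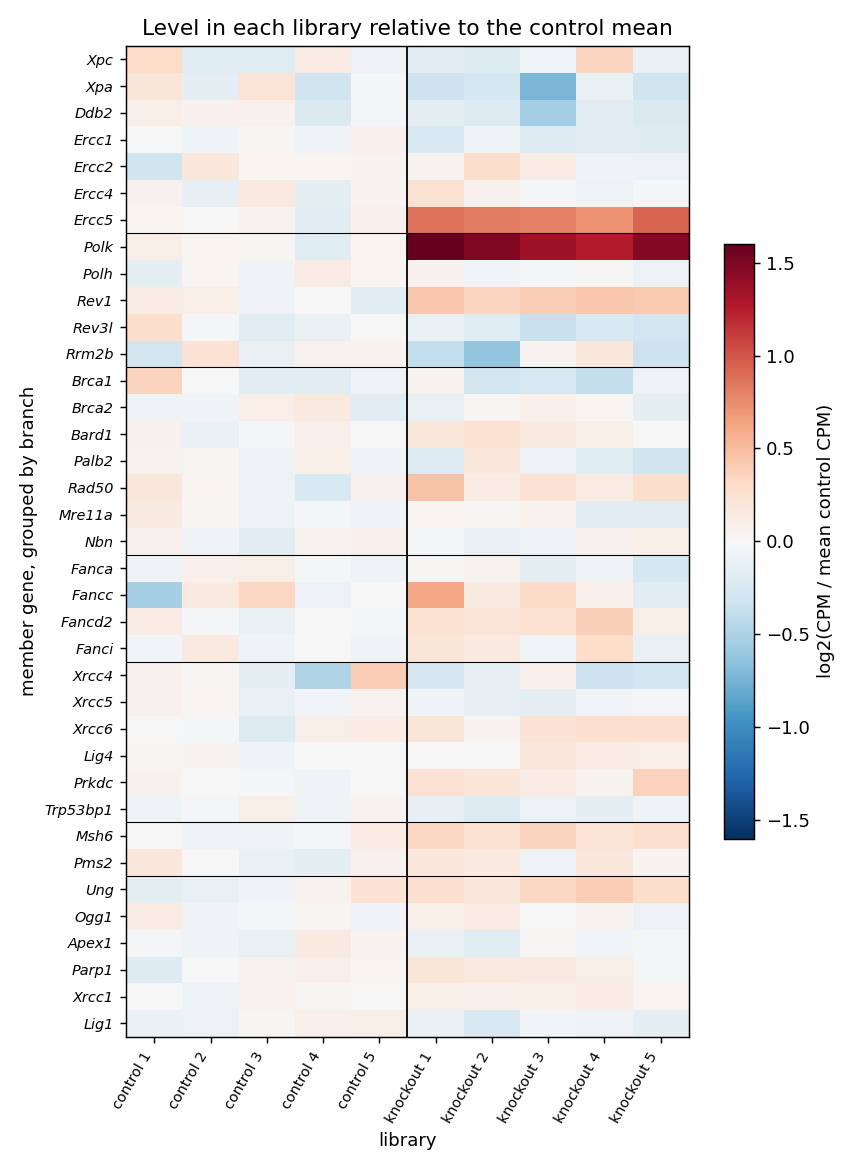
Level of each of the 37 genes in each library as log2 of CPM over the mean control CPM (colour scale), with branches divided by lines and controls left of knockouts. The rows of Polk and Ercc5 are red in all 5 knockouts, and most other rows show no block of colour that divides the groups.

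Directions were compared within litters, each knockout against the control or controls of the same litter. Of the 37 genes 16 kept 1 direction in all 4 litters, where 46.8% of all genes tested did. The 9 genes that rose were higher in all 4 litters, and 3 of the 4 that fell were lower in all 4. Ddb2 was the exception, with a difference of 0.05 in log2 CPM in litter C and -0.62 in litter B. Since these litters gave the libraries of the test, this describes the spread behind the calls and is no second test of them.

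**Figure D4:**
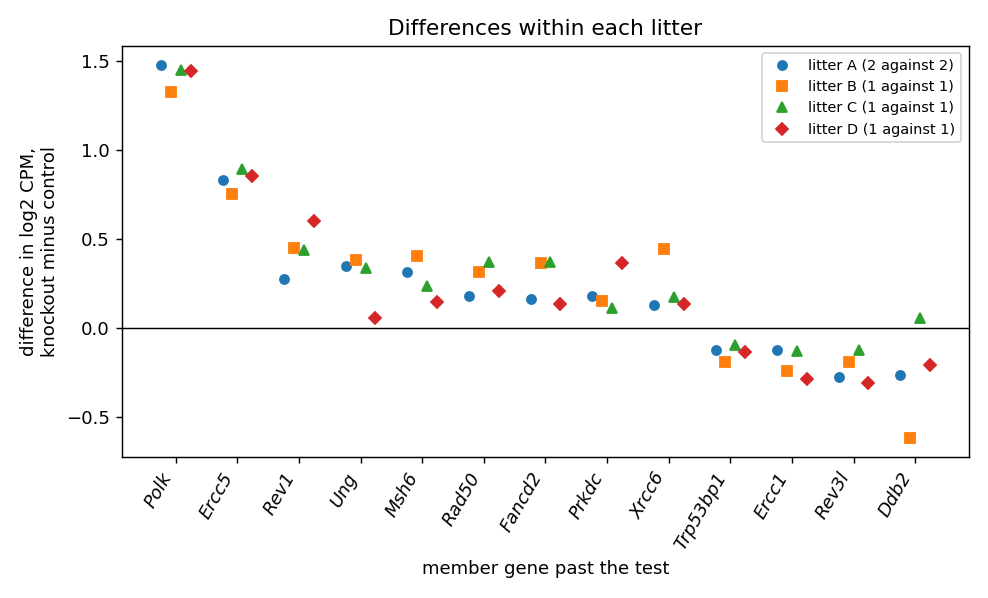
Difference in log2 CPM, knockout minus control, within litter A (2 against 2) and litters B, C and D (1 against 1 each) for the 13 genes past the test. The litters of Polk lie between 1.33 and 1.48, and those of Ddb2 run from -0.62 to 0.05.

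Levels of different genes were set side by side as CPM per kilobase of merged exons. This scale is rough, because merged exons can be longer than the transcripts in use. On it Apex1 (132), Parp1 (79.0) and Lig1 (50.5) of base excision stood highest in controls, followed by Msh6 (45.2) and Xrcc5 (36.99). For Apex1, Pip4p1 overlaps 61.7% of that length from the other strand. The lowest were Rrm2b (1.27), Xrcc4 (1.88), Fancc (2.44) and Polk (2.53). In the knockouts Polk stood at 6.85 and Ercc5, at 8.999 in controls, stood at 16.01 CPM per kilobase. The summed CPM of the 37 genes lay between 2656 and 2752 in controls and between 2751 and 2903 in knockouts, so control 5 and knockout 5 met at the boundary.

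Beside the 37, a wider list of 106 genes of the same branches and of direct reversal was drawn up by known function, of which 105 were matched and tested. Of these 17 rose, 12 fell and 76 did not pass. The 29 that passed are 27.6% of the list, against 35.2% of all genes tested, and the median log2 fold change was 0.00. By direction, 16.2% of the list rose and 11.4% fell, against 18.1% and 17.1% of all genes tested. Only Mgmt, Neil2, Parp3 and Alkbh2 passed with a change of at least 1.5-fold, all upward. Of all genes tested 14.2% did so in either direction and 8.83% upward, so large changes were not more frequent in this list.

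Direct reversal held the largest of these rises, and of its 3 genes 2 rose and 1 did not pass. Mgmt, the methyltransferase that takes alkyl groups off guanine, went from 4.91 ± 0.486 to 18.9 ± 1.90 CPM, with 4.26 to 5.49 CPM in controls and 17.4 to 21.7 CPM in knockouts (log2 fold change 1.94, SE 0.096, edgeR adjusted p = 3.81e-08). Its groups were far apart. Alkbh2, a dioxygenase that demethylates bases, rose from 5.00 ± 0.905 to 7.65 ± 0.777 CPM (0.61, adjusted p = 0.00317). Usp30 overlaps 29.5% of the exon length of Alkbh2 from the other strand and was higher too (0.43, adjusted p = 0.00572). In base excision 6 of 20 rose and 1 fell. The glycosylase genes Neil2 (1.83 ± 0.212 to 3.51 ± 0.174 CPM, log2 fold change 0.94) and Nthl1 (8.35 ± 0.680 to 12.5 ± 1.41 CPM, 0.58) were higher, while Neil3, of the same enzyme family as Neil2, fell by 0.28 on the log2 scale (adjusted p = 0.00732). Parp3, a further strand break sensor, was higher at 0.84 (adjusted p = 0.00797).

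Among the other branches of the wider list, nucleotide excision had 3 of 20 higher and 2 lower, all by little. Cdk7 of the TFIIH complex fell by 0.21 on the log2 scale (adjusted p = 0.00294), and Gtf2h2, another TFIIH subunit, by 0.15, while the subunit gene Gtf2h3 was higher at 0.17. Xab2, a partner of XPA, was higher at 0.14 (adjusted p = 0.0186), a call lost without control 2 (0.13, adjusted p = 0.0516). Camsap3 overlaps 12.2% of the exon length of Xab2 from the other strand. In translesion synthesis and nucleotide supply 1 of 13 rose and 5 fell, with a median log2 fold change of -0.11. The gene that rose was Poli, polymerase iota, of the same polymerase family as Polk (12.8 ± 0.741 to 17.6 ± 0.728 CPM, log2 fold change 0.45, adjusted p = 0.000169). Rrm1, the large subunit of ribonucleotide reductase (442 ± 19.5 to 361 ± 15.1 CPM), fell by 0.29 on the log2 scale. Mad2l2, the REV7 subunit of polymerase zeta, also fell by 0.29, alongside the 0.24 of the Rev3l subunit, and Wdr48, a partner of the deubiquitinase that acts on the Fanconi clamp, fell by 0.19, with Gorasp1 over 14.9% of its exon length on the other strand.

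In homologous recombination 2 of 20 rose and 1 fell. Rad51d, a recombination gene, was higher at 0.55 (12.2 ± 0.945 to 17.9 ± 1.22 CPM, adjusted p = 0.000134), and Dna2, a nuclease that trims broken ends, at 0.15 (adjusted p = 0.00828). Rad54b, a motor protein of recombination, fell by 0.29 on the log2 scale (adjusted p = 0.0219), and leaving out control 1 or 2 or knockout 3 or 4 took its adjusted p to between 0.0513 and 0.058, with log2 fold changes from -0.27 to -0.24. Fsbp, on the same strand, shares 35.8% of the exon length of Rad54b, so the split of reads between them is uncertain. Of 12 Fanconi genes 0 rose and 2 fell: the nuclease gene Fan1 (20.0 ± 1.28 to 13.7 ± 1.27 CPM, log2 fold change -0.55, adjusted p = 0.000165) and Fancg of the core complex (-0.40, adjusted p = 0.00193). The direction of these 2 differed from that of Fancd2. In end joining 2 of 12 rose and 1 fell. The shieldin subunit gene Shld2 was higher at 0.49 (9.68 ± 0.512 to 13.6 ± 0.398 CPM, adjusted p = 0.000112), as was Poll, polymerase lambda (0.17, adjusted p = 0.048), and Shld1, another shieldin subunit, was lower at -0.26 (adjusted p = 0.05). Poll and Shld1 passed in only 6 and 3 of 21 alternatives, and both were lost with litter as a block (adjusted p = 0.0781 and 0.057).

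**Figure D5:**
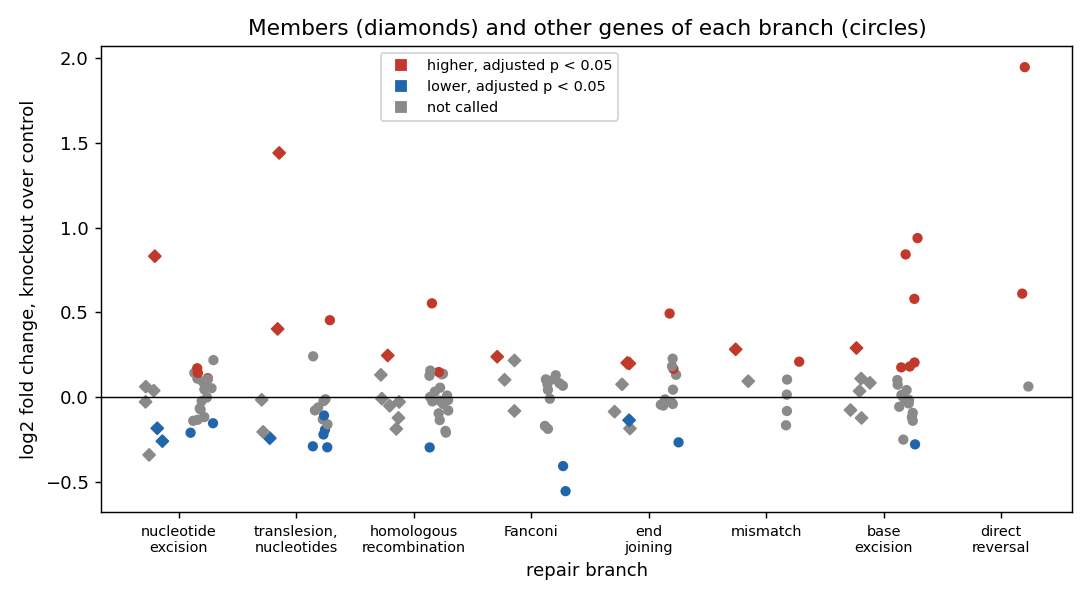
Log2 fold change, knockout over control, of the 37 genes (diamonds) and of the 105 further repair genes (circles) by branch; red higher, blue lower, grey not called at an adjusted p of 0.05, spread sideways only to part the points. Mgmt at 1.94, Polk at 1.44, Neil2 at 0.94, Parp3 at 0.84 and Ercc5 at 0.83 are the highest points, and the lowest is Fan1 at -0.55.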

How the data were processed

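Total RNA of 5 control and 5 Cxxc1 knockout forelimb bud libraries was analysed from the deposited table of estimated counts per Ensembl gene, rounded here to whole numbers. The submitters' processing notes name mm10, DESeq2 1.16.1, R 3.4.1 and Salmon 0.8.2, with no role given. A second deposited table of signal held each rounded count over a factor common to its library in 100.00% of its values (tolerance 0.01) and served as an alternative on log2(value + 1) with limma 3.58.1. Symbols, coordinates and exon lengths came from GENCODE M21 (GRCm38), and promoter windows from RefSeq (GRCm38.p6).

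The test was the quasi-likelihood test of edgeR 4.0.16 (glmQLFit, glmQLFTest; R 4.3.3), after TMM scaling and a filterByExpr filter with a count minimum of 10 and a total of 15, with Benjamini-Hochberg adjustment over 20562 genes and a threshold of 0.05. The SE is the absolute log2 fold change over the square root of the F statistic. The 95% confidence intervals use this SE with a normal quantile, so they are approximate and somewhat narrower than the F test would give. The edgeR code was tested on simulated data.

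Per the labels, litters B, C and D each gave 1 library of each group and litter A gave 2 of each, so the litter is the labelled pairing, and the numbers 1 and 2 do not pair libraries within litter A. The correlations of same-numbered deviations from the group means were -0.0133, 0.155, -0.0245, 0.0416 and 0.200. Nothing in the labels says whether limb buds were pooled. Members and lists were chosen with earlier results of these data known. Full values are given for Cxxc1, for the members with an adjusted p below 0.05 and an absolute log2 fold change of at least 0.3, and for the smallest adjusted p of each branch. Ddb2 and Trp53bp1 were given in full after their values were seen. Of the wider list, up to 4 genes per branch with the smallest adjusted p below 0.05 are named, and Cdkn1a of the p53 targets; 1 further gene of the wider list is not reported here. Alternatives covered scaling, filter, DESeq2 1.42.0, blocks, somite stage, left-out libraries, control genotype and the libraries with Xist above 100 CPM.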

Additional observations from a re-analysis of the deposited data

Results flagged for a closer look

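In 7 of 122 groups of 5 libraries, 1 library lay so far from the other 4 that its gap exceeded 0.71 of the range of the group. Chance gives such a gap in about 1 in 20 groups. Control 1 was involved 2 times: Brca1 read 118 CPM there with the other controls at 82.1 to 92.4, and Parp1 read 363 CPM with the others at 422 to 442. In control 2 Fanci read 53.6 CPM with the others at 45.7 to 47.9, and in control 4 Polk read 12.3 CPM with the others at 14.3 to 14.9. Among knockouts, Xpc read 53.4 CPM in knockout 4 with the others at 36.2 to 41.0. In knockout 3 Ddb2 read 9.71 CPM with the others at 12.1 to 12.8, and Neil2 of the wider list read 3.20 CPM with the others at 3.54 to 3.61.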

How the results depend on the processing

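Polk, Ercc5, Rev1, Fancd2 and Msh6 rose past the test under all 21 alternatives. Their log2 fold changes ran from 1.39 to 1.49, 0.79 to 0.88, 0.36 to 0.49, 0.20 to 0.29 and 0.26 to 0.33. Prkdc and Ung lost their calls only without litter A (0.21 and 0.25, adjusted p = 0.137 and 0.0683), where only 3 against 3 libraries remain. The 9 members called higher became 5 without litter A and ranged from 7 to 9 as single libraries were left out. The 4 called lower became 0 with scaling by library size alone, 2 without a filter, 2 with a somite stage term, 0 without litter A, 0 with controls labelled without Cre and 2 without the libraries of high Xist, and ranged from 1 to 5 as single libraries were left out. Among the named genes of the wider list, Cdk7, Gtf2h2, Xab2, Wdr48, Rad54b, Poll, Shld1, Neil3, Parp3 and Alkbh2 lost their calls without litter A. The wider list had 29 higher and 7 lower by library size and 10 higher and 4 lower without litter A. All genes called fell to 2002 higher and 2021 lower without litter A. Scaling by library size moved the median of all genes to 0.05 and the share of calls that were higher from 51.3% to 62.2%. DESeq2 called 9 members higher and 5 lower.

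Some genes that did not pass changed sign, nearly all with log2 fold changes close to 0. Fancc, at 0.22 over all libraries, was the exception, and without litter A its difference was lost. By library size, log2 fold changes were 0.023 (Xpc), 0.039 (Polh), 0.024 (Brca2), 0.004 (Mre11a) and 0.044 (Nbn). Without litter A they were 0.123 (Xpc), -0.051 (Ercc2), -0.066 (Ercc4), 0.035 (Nbn) and -0.007 (Fancc). With controls labelled without Cre they were 0.056 (Xpc), -0.017 (Ercc2) and 0.045 (Nbn), and without the libraries of high Xist 0.062 (Xpc), -0.019 (Ercc2) and 0.032 (Nbn). As single libraries were left out, the ranges were -0.133 to 0.056 for Xpc, -0.008 to 0.109 for Ercc2, -0.015 to 0.080 for Ercc4, -0.052 to 0.019 for Polh, -0.067 to 0.015 for Brca2 and -0.048 to 0.020 for Nbn. The branch medians moved to 0.044 for Fanconi and 0.005 for base excision without litter A and to 0.114 for base excision by library size. The nucleotide excision median ran from -0.133 (without knockout 4) to 0.003 as single libraries were left out, and was 0.023 by library size. The cause of these shifts was not tested.

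With litter as a block, the labelled pairing, 9 members were higher and 3 lower. Among the 37 it changed only the call of Ddb2, as given in the text. With the library number as a replicate block, which also splits litter A by number, 9 were higher and 3 lower. Ddb2 and Ercc1 lost their calls (adjusted p = 0.0788 and 0.059) and Brca1 passed (-0.18, adjusted p = 0.0435), while Ercc1 passed and Brca1 did not with litter as a block (adjusted p = 0.0414 and 0.154). In the wider list Xab2, Poll and Shld1 lost their calls under the number (adjusted p = 0.0544, 0.104 and 0.0548), and Xab2 passed with litter (adjusted p = 0.0317).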
